A study of Homo sapiens with 4 samples.

Results

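The polyamine genes described here are 10 genes of synthesis, breakdown and feedback control: ODC1, AMD1, SRM, SMS, SAT1, SMOX, PAOX, OAZ1, OAZ2 and AZIN1. Their members were all probes whose gene symbol in the platform annotation is one of these names, which gave 17 of the 47320 probes on the array. Of the 17 probes, 14 were detected well enough to be kept, among 21996 kept probes in all, and each of the 10 genes had at least 1 kept probe among 12136 tested genes. The measurements come from 22Rv1, an established human prostate cancer cell line. In the WCE group (2 arrays) the cells received 10 µg/mL of the herbal extract WCE for 16 h, and in the vehicle group (2 arrays) they received vehicle for the same 16 h. The arrays read bulk RNA, so fewer cells of a kind and less RNA per cell cannot be told apart, and the labels do not say what the extract contains. The labels do not say whether the arrays of a group came from separate cultures, so p-values cover the spread among these arrays alone, which may be technical. The design addresses which transcripts the extract changes.

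Polyamines are small, positively charged amines that bind nucleic acids and are needed for cell growth. Putrescine is made from ornithine by ornithine decarboxylase, and spermidine and spermine are built on it with aminopropyl groups from decarboxylated S-adenosylmethionine. Breakdown runs through acetylation and oxidation, and antizymes, whose translation rises with polyamine levels, bind ornithine decarboxylase and send it to the proteasome. The prostate is known for its high polyamine content, since the gland secretes spermine into seminal fluid.

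The start-site windows of AMD1 and SAT1 are shown because these were the members past the test, and that of SRM as an example of a member window with the E-box CACGTG, which MYC and related factors bind. Each is the 250 bases before a RefSeq start on build GRCh38.p14, 5′ to 3′ on the gene's strand. They are chr6:110874535-110874784 on the plus strand for AMD1, chrX:23782923-23783172 on the plus strand for SAT1 and chr1:11060019-11060268 on the minus strand for SRM. Capitals mark matches, on either strand, to CACGTG, to GCGTG (the core of the aryl hydrocarbon receptor's element) or to TGACNNNGC (the core of the antioxidant element).
AMD1: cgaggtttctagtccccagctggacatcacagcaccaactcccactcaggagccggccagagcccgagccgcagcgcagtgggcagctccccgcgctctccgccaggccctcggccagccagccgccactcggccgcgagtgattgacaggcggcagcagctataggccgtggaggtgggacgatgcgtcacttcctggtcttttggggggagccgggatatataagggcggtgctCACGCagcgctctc
SAT1: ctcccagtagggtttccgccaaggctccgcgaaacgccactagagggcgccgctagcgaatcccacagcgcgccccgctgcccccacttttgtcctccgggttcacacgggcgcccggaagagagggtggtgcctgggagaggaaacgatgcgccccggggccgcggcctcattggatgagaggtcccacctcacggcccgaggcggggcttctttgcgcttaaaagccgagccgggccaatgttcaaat
SRM: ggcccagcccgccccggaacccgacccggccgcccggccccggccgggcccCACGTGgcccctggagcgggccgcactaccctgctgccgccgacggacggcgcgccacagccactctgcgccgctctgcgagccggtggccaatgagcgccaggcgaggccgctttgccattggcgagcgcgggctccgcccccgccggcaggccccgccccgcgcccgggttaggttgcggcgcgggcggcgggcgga
The AMD1 window held 1 GCGTG match, from 14 to 10 bases before the start, the SAT1 window held no match to the 3 motifs, and the SRM window held 1 CACGTG. Of the other listed starts of AMD1, 1 lies 1 base away and holds the same match, and the window of the other, chr6:110814367-110814616, held none. ODC1 had a window with 3 GCGTG matches and a window with 1 CACGTG, OAZ1 had 2 GCGTG, SMS had 1 and OAZ2 had no match. Windows were matched for 7 of the 10 genes, all but SMOX, PAOX and AZIN1. Across 35116 windows of this length 6.345% held CACGTG, 32.22% held GCGTG and 10.91% held TGACNNNGC, and motif letters alone show no binding.

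Signals were of similar strength on all arrays, with median raw intensities of 85.1 and 81.7 on the WCE arrays and of 83.5 and 82.95 on the vehicle arrays. Between 45.2% and 48.9% of probes were detected per array. The WCE arrays lay farther apart than the vehicle arrays, with 338 against 77 probes differing over 2-fold within the pair. Of 7 prostate luminal markers with a probe, 6 were detected on all arrays (HOXB13, FOLH1, KRT8, KRT18, TMPRSS2 and KLK2) and KLK3 on none, while TMPRSS2 and KLK2 were lower after WCE (adjusted p = 0.00201 and 0.0426, limma). Of 11 markers of other cell types 5 were detected on all arrays (COL1A1, LUM, CD68, CHGA and SYP) and had adjusted p-values from 0.116 to 0.390. With 2 arrays against 2, an exact two-sided permutation test cannot give a p below 0.333, so each call rests on the variance that limma pools over all genes.

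After WCE, AMD1 fell and SAT1 rose, while the other 8 polyamine genes did not pass the test. AMD1 encodes S-adenosylmethionine decarboxylase, which makes the aminopropyl donor for spermidine and spermine, and it was 1.90-fold lower. SAT1 encodes spermidine/spermine N1-acetyltransferase, the acetylating enzyme that starts polyamine breakdown and export, and it was 1.73-fold higher. The call of 2 among 10 genes compares with 1.89% of all tested genes past limma's adjusted p of 0.05, and with 1.18% higher and 0.709% lower. At an unadjusted p below 0.05 (limma) there were 3 of the 10 genes, against 19.1% of all tested genes. The members were chosen with earlier results of these data known, so these counts do not test the set. Tested probe by probe, 0 of 14 member probes passed (limma), against 0.846% of all kept probes, and 3 of the 14 had an unadjusted p below 0.05, against 17.9% of all kept probes.

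**Figure D1:**
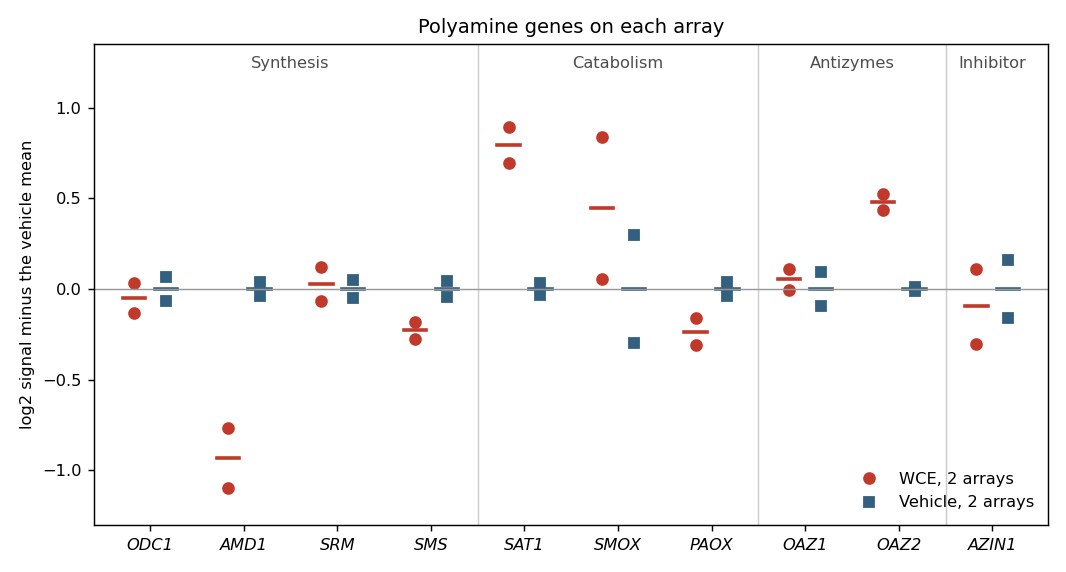
The vertical axis gives each array's log2 signal minus the mean of the vehicle arrays, for the probe that stands for each of the 10 genes (circles, WCE arrays; squares, vehicle arrays; lines, group means). AMD1 lies at -0.76 and -1.10 on the WCE arrays and SAT1 at 0.89 and 0.69, while ODC1, SRM, SMOX, OAZ1 and AZIN1 overlap between the groups.

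Among the genes of synthesis, ODC1, the rate-limiting ornithine decarboxylase, had normalised log2 signals of 12.23 and 12.40 on the WCE arrays and of 12.43 and 12.30 on the vehicle arrays. The groups overlapped, and the log2 fold change was -0.049 ± 0.16 (SE), with a 95% interval of 0.748 to 1.25 in fold, so changes within these limits cannot be told from none. AMD1 had 10.83 and 10.49 on the WCE arrays and 11.55 and 11.63 on the vehicle arrays. Both WCE arrays lay below both vehicle arrays, and the WCE arrays differed from each other by more than the vehicle arrays did. Its log2 fold change was -0.93 ± 0.17 (SE; 95% interval -1.32 to -0.53; adjusted p = 0.0373, limma), and 0.898% of tested genes had a lower one. At the level of probes the adjusted p was 0.0611 (limma). The adjusted p missed the threshold when vehicle replicate 1 (0.146), vehicle replicate 2 (0.129) or WCE replicate 2 (0.0857) was left out, with median scaling (0.0964) and with no detection filter (0.101), and over all 15 other settings the adjusted p ran between 0.00183 and 0.146 with the log2 fold change between -1.10 and -0.76.

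SRM, spermidine synthase, adds the first aminopropyl group to putrescine. It had 10.21 and 10.39 on the WCE arrays and 10.33 and 10.22 on the vehicle arrays, with a log2 fold change of 0.026 ± 0.16 (SE) and overlapping groups. SMS, spermine synthase, which turns spermidine into spermine, was read by a pair of probes. The brighter one had 10.72 and 10.63 with WCE and 10.86 and 10.95 with vehicle, groups that did not overlap, for a log2 fold change of -0.23 ± 0.16 (SE; adjusted p = 0.482, limma). The dimmer SMS probe had 10.38 and 10.33 with WCE and 10.52 and 10.24 with vehicle, with overlapping groups and a log2 fold change of -0.025. For SRM and SMS the 95% intervals ran from 0.789 to 1.32 and from 0.666 to 1.09 in fold. Of the 4 synthesis genes 1 (AMD1) fell and 0 rose, against 0.709% lower and 1.18% higher of all tested genes. The median log2 fold change of the 4 was -0.14, against 0.015 over all tested genes.

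Among the genes of breakdown, SAT1 had log2 signals of 12.08 and 11.87 on the WCE arrays and of 11.22 and 11.15 on the vehicle arrays. Both WCE arrays lay above both vehicle arrays. Its log2 fold change was 0.79 ± 0.16 (SE; 95% interval 0.42 to 1.16; adjusted p = 0.0490, limma), and 1.47% of tested genes had a higher one. At the level of probes the adjusted p was 0.0756 (limma). The value lay just inside the threshold, and the adjusted p missed it when vehicle replicate 1 (0.225), vehicle replicate 2 (0.186), WCE replicate 1 (0.0548) or WCE replicate 2 (0.0574) was left out, with median scaling (0.0615), with cyclic loess (0.0617), with crossed replicate numbers as a block (0.0614) and with no detection filter (0.102). Over all 15 other settings its adjusted p ran between 0.00619 and 0.225 and its log2 fold change between 0.69 and 0.90.

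SMOX, spermine oxidase, which oxidises spermine directly to spermidine, was dim. The kept SMOX probe (ILMN_1775380) had 6.03 and 6.81 on the WCE arrays and 5.67 and 6.27 on the vehicle arrays. The groups overlapped, and both pairs of arrays lay far apart (SD 0.55 with WCE and 0.42 with vehicle). Its log2 fold change was 0.45 ± 0.28 (SE; 95% interval 0.882 to 2.11 in fold; adjusted p = 0.432, limma), and with 1 array left out it ranged from 0.056 without WCE replicate 2 to 0.84 without WCE replicate 1. The other SMOX probes were not kept: ILMN_2367258 was detected on 1 of the 2 WCE arrays and on 0 vehicle arrays, and ILMN_2280707 on none.

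PAOX, a peroxisomal oxidase of acetylated polyamines, had 7.94 and 8.09 on the WCE arrays and 8.29 and 8.21 on the vehicle arrays for its brightest probe. These groups did not overlap, and the log2 fold change was -0.24 ± 0.16 (SE; adjusted p = 0.475, limma). A dimmer kept PAOX probe (ILMN_1765116) had 5.44 and 5.95 with WCE and 6.01 and 5.73 with vehicle, with overlapping groups and a log2 fold change of -0.17, and the last one (ILMN_2278265) was detected on 1 array of each group and was not kept. Of the 3 breakdown genes 1 (SAT1) rose and 0 fell, against 1.18% higher and 0.709% lower of all tested genes. A call of 1 gene in each role does not show a shift of the role. The intervals of the oxidases, up to 2.11-fold for SMOX and down to 0.661-fold for PAOX, leave room for changes of that size.

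**Figure D2:**
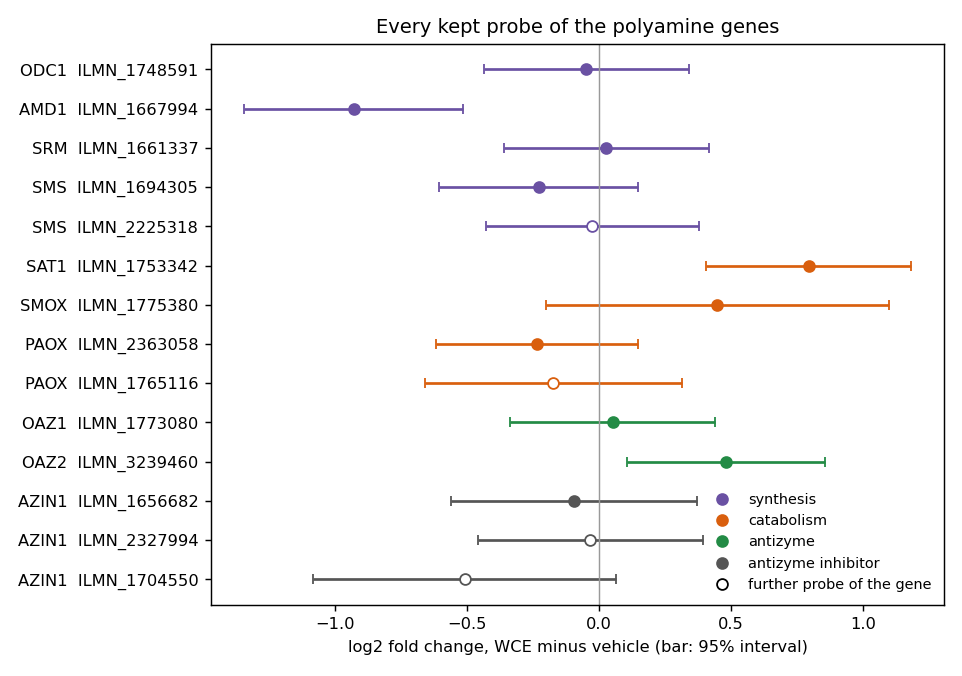
The horizontal axis gives the log2 fold change (WCE minus vehicle) of each of the 14 kept probes with its 95% interval from the fit over all probes; filled circles are the probes that stand for their genes and open circles are further probes. The intervals of AMD1, SAT1 and OAZ2 lie away from 0, and the 3 AZIN1 probes spread from -0.51 to -0.033.

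Neither antizyme passed the test. OAZ1, the main antizyme of most tissues, was bright and had 14.69 and 14.80 on the WCE arrays and 14.79 and 14.60 on the vehicle arrays. The groups overlapped, with a log2 fold change of 0.052 ± 0.16 (SE; 95% interval 0.803 to 1.34 in fold). OAZ2, a second antizyme that also binds ornithine decarboxylase, had 8.89 and 8.80 on the WCE arrays and 8.38 and 8.35 on the vehicle arrays. Both OAZ2 values with WCE lay above both with vehicle, but the log2 fold change of 0.48 ± 0.16 (SE; 95% interval 1.09 to 1.78 in fold) did not pass over all genes (unadjusted p = 0.0135, adjusted p = 0.152, limma). It was positive in all 15 other settings, between 0.42 and 0.57, and passed in 0 of them. The difference between the changes of OAZ1 and OAZ2 was not tested. Antizyme is made by a frameshift during translation, so transcript signals do not give the level of the protein.

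AZIN1, the antizyme inhibitor that binds antizyme in place of ornithine decarboxylase, was read by 3 probes. The brightest (ILMN_1656682) had 11.28 and 10.87 with WCE and 11.01 and 11.33 with vehicle, for a log2 fold change of -0.096 ± 0.20 (SE; adjusted p = 0.843, limma). The second AZIN1 probe (ILMN_2327994) had 9.34 and 9.28 with WCE and 9.15 and 9.53 with vehicle, a log2 fold change of -0.033. The dimmest AZIN1 probe (ILMN_1704550) had 7.33 and 6.56 with WCE and 7.58 and 7.33 with vehicle, a log2 fold change of -0.51 ± 0.25 (SE; adjusted p = 0.336 over all probes, limma). The groups overlapped for all 3 probes, for the dimmest one by a margin smaller than the 2 decimals show.

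Over all 10 polyamine genes, 5 had a positive and 5 a negative log2 fold change, with a median of -0.011 against 0.015 over all tested genes. With median scaling the split was 7 positive, as ODC1 and AZIN1 changed sign, and with cyclic loess it was 4, as OAZ1 did. The median over all tested genes was 0.093 with median scaling and 0.0047 with cyclic loess. The groups did not overlap for 5 of the 10 genes, which is close to the 50.3% of all tested genes (26.2% higher and 24.1% lower). These 5 were SAT1 and OAZ2 on the higher side and AMD1, SMS and PAOX on the lower side.

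**Figure D3:**
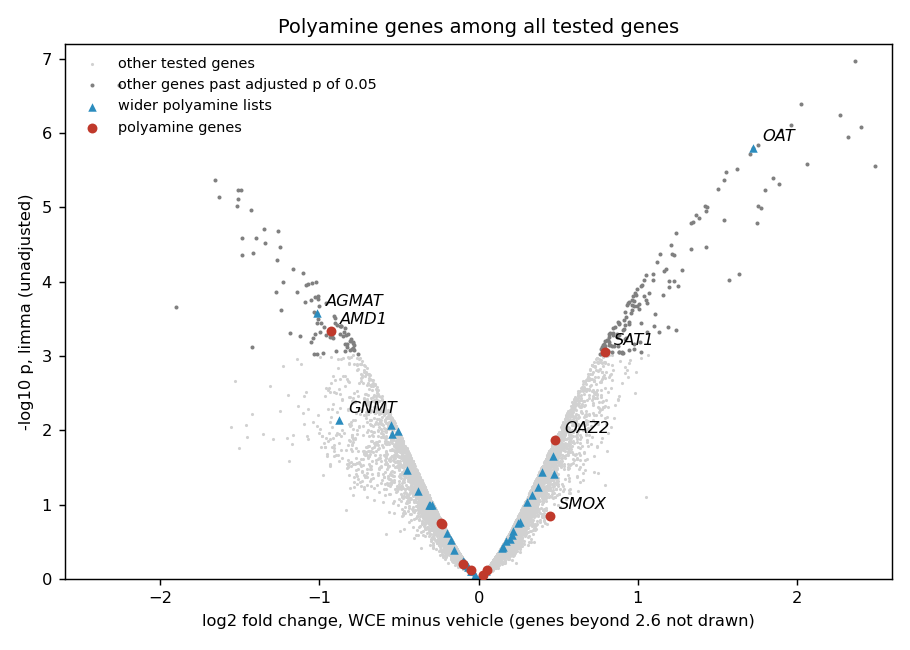
The horizontal axis gives the log2 fold change (WCE minus vehicle) and the vertical axis -log10 of limma's unadjusted p for the tested genes within the plotted range. AMD1 at -0.93 and SAT1 at 0.79 sit at the inner edge of the genes past the adjusted threshold, OAZ2 and SMOX lie below it, and OAT of the wider lists lies farther out at 1.72.

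The wider pathway was read from 5 lists of genes that supply, salvage, carry or use polyamines or their precursors, 53 genes in all. Of these, 50 had a probe and 39 were tested, and 1 rose and 1 fell, against 1.18% higher and 0.709% lower of all tested genes. Both were in the list of arginine and ornithine supply. The one that fell, AGMAT, was kept only through the vehicle arrays, where it is higher, so it supports no count. The lists were chosen with earlier results of these data known, so the counts do not test the wider pathway. OAT, the mitochondrial aminotransferase that turns ornithine, the substrate of ODC1, into a precursor of proline and glutamate, rose 3.30-fold. It had log2 signals of 12.01 and 12.01 on the WCE arrays and of 10.22 and 10.35 on the vehicle arrays. Its log2 fold change was 1.72 ± 0.16 (SE; adjusted p = 0.00108, limma), and its second probe (ILMN_1654441) had 1.47 ± 0.17 (SE; adjusted p = 0.00672 over all probes, limma). OAT passed in all 15 other settings, with log2 fold changes between 1.60 and 1.84.

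AGMAT, named for agmatinase, which in bacteria splits agmatine into putrescine and urea, fell by 1.01 ± 0.18 on the log2 scale (SE; adjusted p = 0.0268, limma). It was dim, at 5.25 and 4.94 on the WCE arrays and at 6.20 and 6.02 on the vehicle arrays, and was detected on 1 of the 2 WCE arrays. It was therefore tested only because the vehicle arrays, where it is higher, passed the detection filter, so its call supports no count, and it was not tested with the strict filter. Without background correction its log2 fold change was -0.51 (adjusted p = 0.0626), and the call was also lost without vehicle replicate 1 (0.171), vehicle replicate 2 (0.0609) or WCE replicate 2 (0.0746), with median scaling (0.0569), the authors' processed values (0.0534), crossed replicate numbers as a block (0.0512) and no detection filter (0.0900), over a range from 0.000477 to 0.171. The other 10 tested genes of this list did not pass. PYCR1, which completes proline synthesis, had 0.40 ± 0.16 (log2 fold change, SE), and ASL, which releases arginine from argininosuccinate, had -0.38 ± 0.18. The dimmer PYCR1 probes had 0.59 and 0.31, and a dimmer ASL probe (ILMN_1685037) had -0.074 with overlapping groups.

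In the methionine cycle and the salvage of methylthioadenosine, the by-product of spermidine and spermine synthesis, 15 of 18 listed genes were tested and 0 passed at an adjusted p of 0.05 (limma; 4 at an unadjusted p below 0.05, against 19.1% of all genes). Of the 15, 10 were negative, against 5796 of all 12136 tested genes. Their median log2 fold change was -0.091, against 0.015 over all tested genes. GNMT, which uses up S-adenosylmethionine to methylate glycine, had 5.64 and 6.47 on the WCE arrays and 7.03 and 6.83 on the vehicle arrays. That is a log2 fold change of -0.88 ± 0.25 (SE; adjusted p = 0.120, limma), with WCE arrays that lay far apart. With 1 array left out the GNMT value ranged from -1.29 without WCE replicate 2 to -0.46 without WCE replicate 1. Without background correction it was -0.54 (adjusted p = 0.103, limma). Of the 11 other settings that kept all 4 arrays, GNMT passed in 1, the replicate block (adjusted p = 0.00393, limma). ADI1 and APIP, a pair of salvage enzymes, had -0.55 ± 0.17 and -0.51 ± 0.16 (log2 fold change, SE) and adjusted p-values of 0.144 and 0.140 (limma). A dimmer APIP probe (ILMN_2128293) had -0.35 ± 0.16 (adjusted p = 0.314 over all probes, limma). AHCYL2, a relative of the hydrolase of S-adenosylhomocysteine, had 0.47 ± 0.17.

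Of the hypusine pathway, which puts part of spermidine onto the translation factor EIF5A, 3 of 4 listed genes were tested and 0 passed, also at an unadjusted p below 0.05 (limma). DOHH, DHPS and EIF5A had log2 fold changes of 0.30, -0.093 and -0.045. With median scaling the last 2 were 0.022 and 0.045, where the median over all tested genes was 0.093. The dimmer DHPS probes had -0.0071 and -0.15, both with overlapping groups. Of the transport genes 6 were tested and 0 passed (limma; 2 at an unadjusted p below 0.05, against 19.1% of all genes). SLC47A1, an exporter of organic cations, had -0.55 ± 0.17 (log2 fold change, SE; adjusted p = 0.128, limma), the lysosomal polyamine exporter ATP13A2 had 0.47 ± 0.20, the amino acid transporter subunit SLC3A2 had 0.37 ± 0.17 and ATP13A3, a polyamine importer, had -0.098 ± 0.17. A dimmer SLC3A2 probe (ILMN_1679041) had 0.14 with overlapping groups. Of further antizyme, acetylation and oxidation genes 3 were tested and 0 passed (limma; 1 at an unadjusted p below 0.05, against 19.1% of all genes). SATL1 had -0.45, SAT2 0.34 and OAZ3 0.26. Over the 39 wider genes the median log2 fold change was -0.045, against 0.015 over all tested genes. The groups did not overlap for 13 of the 39 higher and for 12 of the 39 lower, against 26.2% and 24.1% of all tested genes. The 12 include AGMAT, which was kept only through the vehicle arrays. The lists were chosen with earlier results of these data known, so these counts do not test them.

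**Figure D4:**
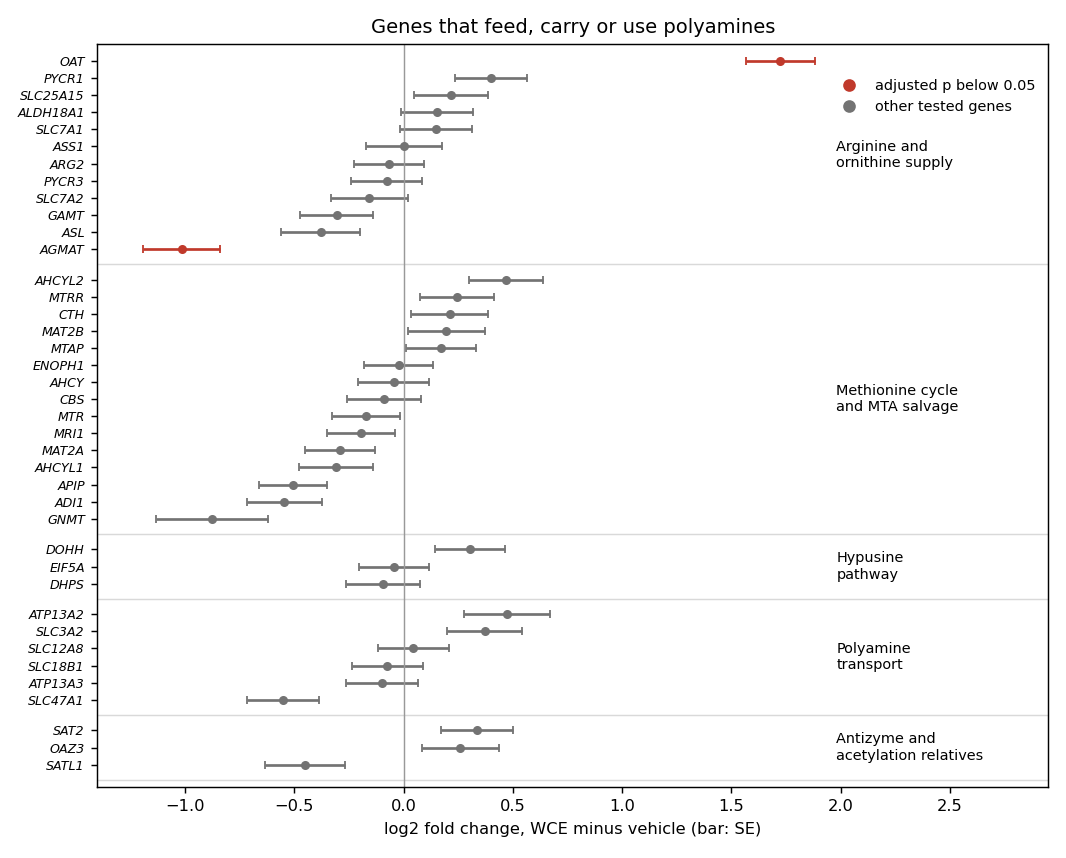
The horizontal axis gives the log2 fold change (WCE minus vehicle) with its SE for the 39 tested genes of the wider lists, grouped by list and ordered within it. OAT at 1.72 and AGMAT at -1.01 are the genes past the adjusted threshold, and MTA stands for methylthioadenosine.

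Factors known to act on polyamine genes were read beside them. MYC, which drives transcription of ODC1, had 11.33 and 11.43 on the WCE arrays and 11.75 and 11.77 on the vehicle arrays, a log2 fold change of -0.38 ± 0.16 (SE; unadjusted p = 0.0396, adjusted p = 0.237, limma). A dimmer MYC probe (ILMN_2110908) had -0.50 ± 0.16. NFE2L2, the transcription factor of the oxidative stress response, had 0.22 ± 0.16 (adjusted p = 0.517, limma).

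The patterns nearest to that of AMD1, the member with the smallest p, were sought by Euclidean distance between mean-centred log2 values over the 4 arrays. They were those of KMT2E (distance 0.0647), ANXA11 (0.0824), the pseudogene CLK2P1 (0.100), FOXRED2 (0.113) and FOXO3 (0.153). Their log2 fold changes were -0.99, -0.92, -1.01, -0.84 and -0.86. Falls like that of AMD1 follow from this choice, and FOXO3 did not pass (adjusted p = 0.0529, limma). CLK2P1 was detected on 1 of the 2 WCE arrays and was kept through the vehicle arrays. With the mean of their probes KMT2E had 0.073, ANXA11 -0.67, CLK2P1 -0.74, FOXRED2 -0.67 and FOXO3 -0.77.

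**Figure D5:**
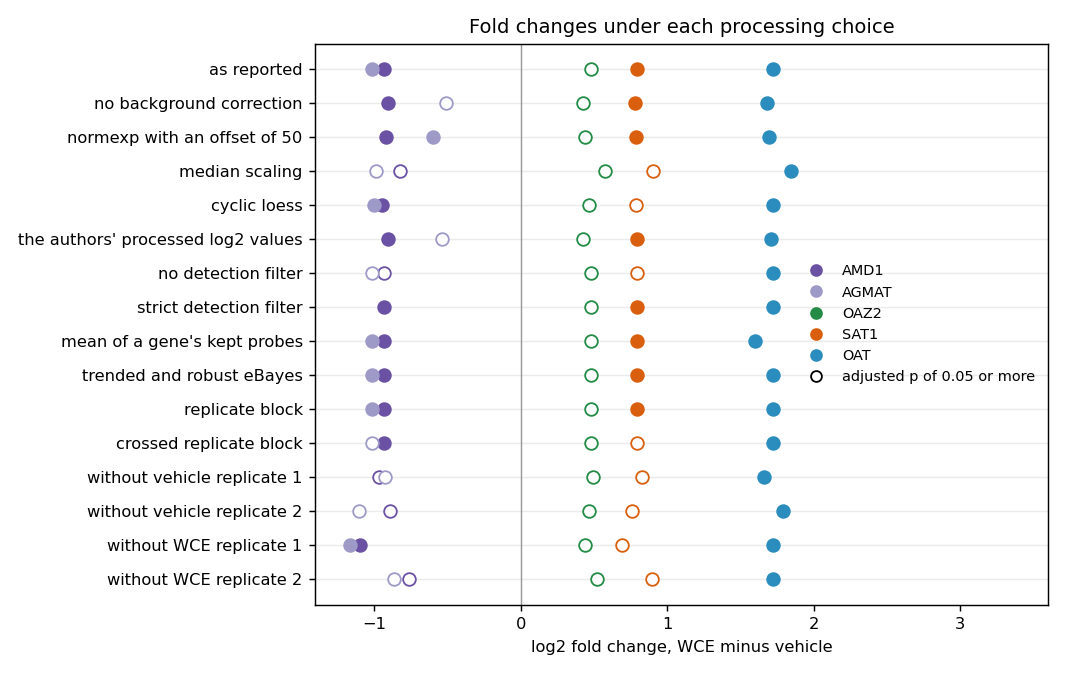
The horizontal axis gives the log2 fold change (WCE minus vehicle) of AMD1, AGMAT, OAZ2, SAT1 and OAT under each processing choice, 1 row a choice; filled circles pass an adjusted p of 0.05 and open circles do not. Each of the 5 genes keeps its sign in every row where it was tested, OAT is filled throughout and OAZ2 in none, and AGMAT was not tested with the strict detection filter.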

How the data were processed

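RNA of 22Rv1 cells, 4 samples in all, was amplified to biotinylated cRNA and hybridised to Illumina bead arrays, per the labels' protocols. The authors deposited raw intensity values, which show no background subtraction or scaling, with a detection p-value beside each, per the file headers. They also deposited log2 values that hold the ranks of the raw intensities on all 4 arrays and have medians of 6.40, so their scale is log2 without centring of genes. The sources used here do not give how they were normalized.

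The intensities were corrected with normexp (offset 16, with the background level inferred from detection p-values), quantile-normalized and put on the log2 scale in limma 3.58.1 (R 4.3.3). Probes were kept with a detection p below 0.05 on both arrays of a group, and each gene was read from its brightest kept probe. Of the probes, 30112 had 1 symbol in the platform annotation, 8 several and 17200 none, and 0 symbols needed updating. limma's lmFit and eBayes tested WCE against vehicle, and p-values were adjusted by Benjamini-Hochberg over all genes, or over all probes, with a threshold of 0.05 and 2 residual and 7.12 prior degrees of freedom. The number of arrays limits the precision. The steps were run on simulated data drawn with the same spread in both groups. The WCE arrays here lay farther apart than the vehicle arrays, so the simulation does not cover that difference.

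The members and lists were chosen with earlier results of these data known. Named are all 10 members, up to 4 genes of each wider list by smallest p, MYC and NFE2L2, and the 5 genes nearest in pattern to the member with the smallest p, leaving out uncharacterised symbols. An item that the rule also names is not reported here. Start-site windows came from RefSeq (GRCh38.p14). Alternatives covered background, scaling, filter, probe choice, variance model, replicate block and leaving out each array.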

Additional observations from a re-analysis of the deposited data

How the results depend on the processing

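Where 1 array was left out, the lone array of its group was taken to vary as the other pair did. SMOX and AGMAT were dim, and each had a probe that was not detected on every array. ATP13A3, SATL1 and CLK2P1 were also dim and, like AGMAT, were not tested with the strict filter. Without background correction the log2 fold change of SATL1 was -0.24. Calls over all genes numbered 229 (143 higher, 86 lower), against 388 without background correction, 368 with an offset of 50, 130 (100 higher, 30 lower) with median scaling, 402 with the authors' values, 53 (42 higher, 11 lower) with no detection filter, 457 with a trended robust variance and 75 to 828 with 1 array left out (75 and 102 without vehicle replicate 1 and 2, 828 and 141 without WCE replicate 1 and 2). Calls over all probes numbered 186, against 404, 397, 101, 419, 21 and 470 in the same order of settings, 351 with the strict filter and 58 to 1039 with 1 array left out. The deviations of same-numbered arrays from their group means had a weak negative correlation across genes (-0.159), and the labels do not pair them. With the replicate block 745 genes (334 higher, 411 lower) and 1188 probes passed. With the numbers crossed, an alternative chosen after seeing the data, 167 genes and 74 probes passed.

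Polyamine genes past the threshold numbered 2, against 0 with median scaling and with no detection filter (limma; 3 of 10 at an unadjusted p below 0.05 in each, against 18.7% and 13.6% of all genes), 1 with cyclic loess, 1 with crossed numbers and 0 to 1 with 1 array left out (AMD1 without WCE replicate 1). Polyamine probes past the threshold numbered 0, against 2 without background correction, with an offset of 50, with the authors' values, with the strict filter, with a trended variance and with the replicate block, and 0 to 1 with 1 array left out. Of the wider lists 2 genes passed, against 1 without background correction, with median scaling, the authors' values, no filter, the strict filter or crossed numbers, and between 1 and 2 with 1 array left out, where 1 was seen without either vehicle array. The causes were not tested. Of the 2 wider genes, AGMAT was kept only through the vehicle arrays and supports no count.

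Signs turned in genes near 0 and in KMT2E, which had -0.99 from its brightest probe. With median scaling ODC1 had 0.062, AZIN1 0.038, DHPS 0.022 and EIF5A 0.045, with cyclic loess OAZ1 had -0.031, and KMT2E had 0.073 with the mean of its probes. Over all tested genes the median was 0.093 with median scaling, against 0.015 as reported. With 1 array left out ODC1 ranged from -0.13 to 0.035, SRM from -0.067 to 0.12, OAZ1 from -0.039 to 0.14, AZIN1 from -0.30 to 0.11, DHPS from -0.21 to 0.028, EIF5A from -0.12 to 0.032 and ATP13A3 from -0.21 to 0.0090. Of the named genes tested, 8 passed as reported and 27 did not. GNMT and FOXO3 of the 27 passed in at least 1 other setting, and 7 of the 8, all but OAT, lost the call in at least 1 other setting.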
